A study of Mus musculus with 12 samples.

Results

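The genes described here are 10 genes of the T helper 1 (Th1) program, picked by symbol from the deposited gene table, with earlier results of these data known. They are the transcription factors *Tbx21*, *Eomes*, *Runx3*, *Hlx* and *Stat4*, the receptor genes *Il12rb1*, *Il12rb2*, *Il18r1* and *Cxcr3*, and the cytokine gene *Ifng*. All 10 were found among the 45777 genes of the table, and all 10 were among the 23585 genes that were tested. RNA was sequenced from wild type Balb/c mouse CD4+ T cells of the spleen, which the labels give as 7 weeks of age. The study's methods contradict the labels for these libraries: they name B6 mice as the source of the sequenced cells, and another age for the mice of the study. Every group, controls included, received 0.5 ug/ml anti-CD3, an antibody that stimulates the T-cell receptor complex, for 3 days. There were 4 groups of 3 libraries. The control group had anti-CD3 alone, and the others had in addition *L. acidophilus* (a lactic acid bacterium that the study's methods describe as inactivated by heat), FK506 (tacrolimus, an inhibitor of the phosphatase calcineurin), or both agents, here called the combination treatment. The labels give no dose of either agent for these libraries, and they do not say whether the 3 libraries of a group came from separate mice or cultures, so p-values measure the spread between these libraries only. The study asked how the combination treatment changes the helper T-cell programs of stimulated CD4+ T cells.

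Th1 cells are the helper T cells that secrete interferon gamma and activate macrophages. In a differentiating cell, interleukin 12 binds a receptor made of IL12RB1 and IL12RB2 and signals through the kinases JAK2 and TYK2 to STAT4, while T-bet, the product of *Tbx21*, switches on *Ifng*, *Cxcr3* and *Il12rb2*. RUNX3 and HLX act with T-bet, EOMES is a related T-box factor best known from cytotoxic and memory T cells, and the interleukin 18 receptor lets interleukin 18 act together with interleukin 12 on *Ifng*. Calcineurin activates the NFAT factors, through which the T-cell receptor drives many cytokine genes.

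The 10 genes did not move as 1 block. In the combination treatment *versus* anti-CD3 alone, *Il12rb2*, *Tbx21*, *Il12rb1* and *Runx3* were lower, *Il18r1*, *Eomes* and *Cxcr3* were higher, and *Hlx*, *Stat4* and *Ifng* passed no call. FK506 alone lowered *Il12rb2* and *Tbx21* and raised *Eomes*, *Il18r1* and *Cxcr3*, and *L. acidophilus* alone changed none of the 10 in edgeR's test. *Stat4* was the member for which the combination treatment differed from the added single effects. That call was kept in 4 of the 12 fits without 1 library. Levels are given as FPKM, the deposited fragment count of a gene scaled to transcript length and library size, with the value of each library in the order of replicates 1, 2 and 3. Fold changes come from edgeR's quasi-likelihood test on the counts, and a call needed an adjusted p under 0.05 (Benjamini-Hochberg, over all tested genes) together with a change of at least 2-fold.

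**Figure D1:**
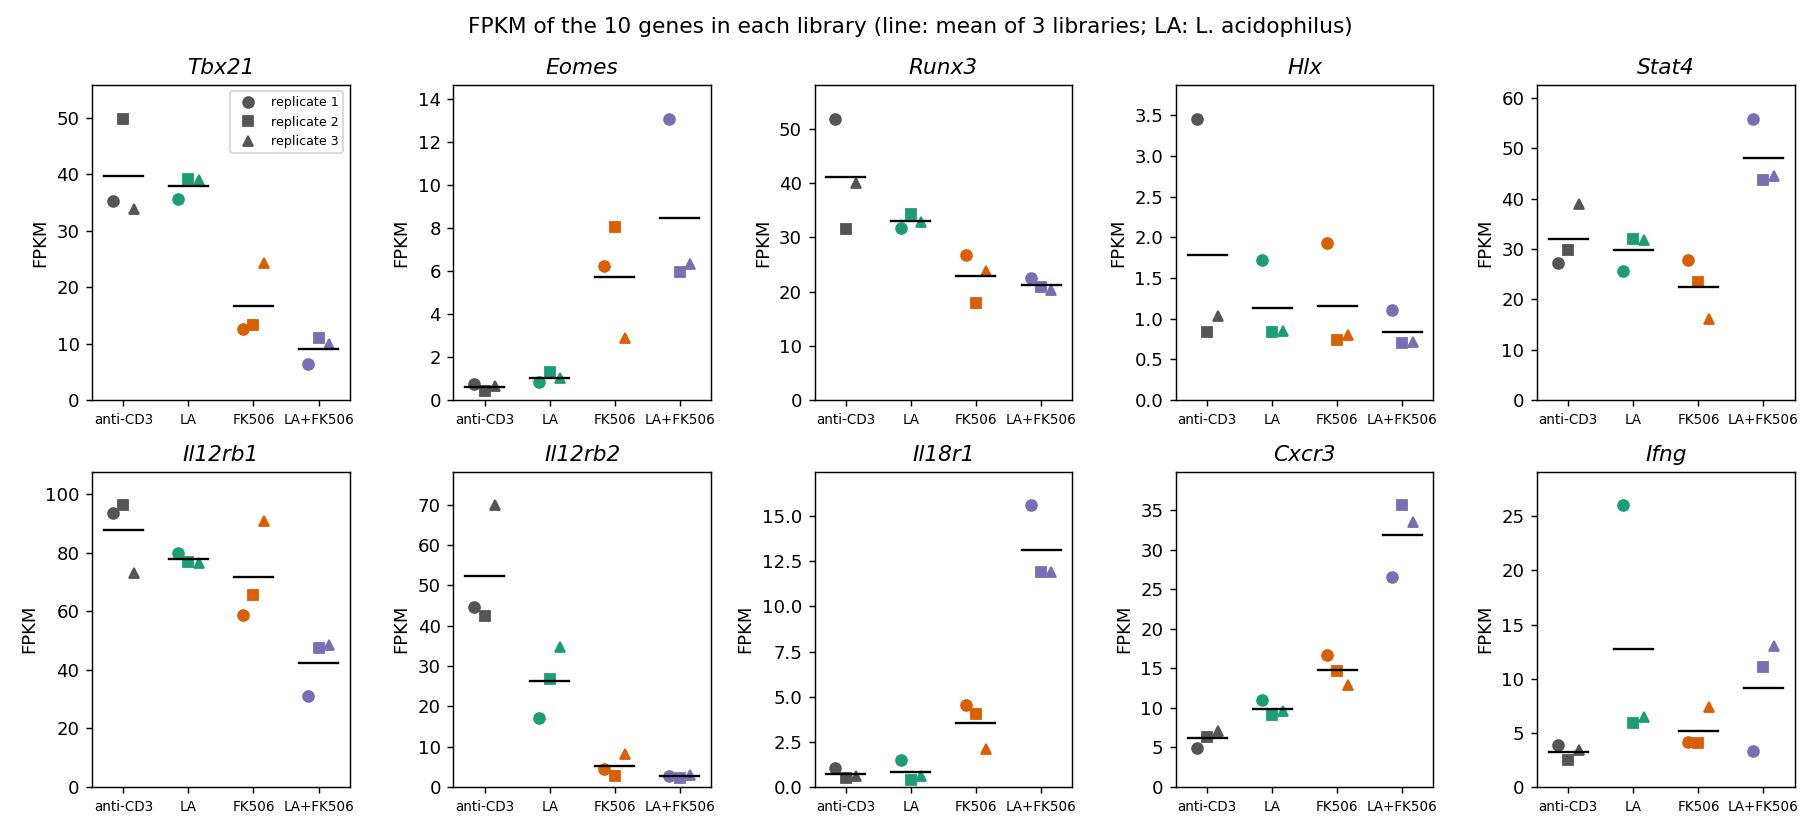
FPKM of each of the 10 genes (vertical axis, linear, from 0) in the 12 libraries of the 4 groups (horizontal axis), with 1 symbol shape per replicate number and a line at the mean of 3 libraries. *Tbx21* and *Il12rb2* step down toward LA+FK506, the combination treatment, *Il18r1* and *Cxcr3* step up, and the *L. acidophilus* library of replicate 1 stands apart for *Ifng*, at 26.0 against 5.91 and 6.42.

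The libraries held from 45416397 to 64658165 counts. In every group replicate 1 was the deepest, at 63113961 to 64658165 counts, against at most 54245588 in replicates 2 and 3. The chi-square per degree of freedom between libraries of a group is larger where they differ more. For replicates 2 and 3 it was 4.52 with the combination treatment and 8.95 with *L. acidophilus*. All other pairs within a group lay between 43.7 and 188. The cause of these differences was not tested. Defining genes of CD4+ T cells were present throughout, with a sum of 8 marker genes between 1392 and 2242 FPKM per library. Markers of other cells differed between the groups. The sum of 8 B-cell markers lay between 35.9 and 59.7 FPKM in the anti-CD3 group and between 24.8 and 35.0 in the *L. acidophilus* group, but between 193 and 380 with FK506 and between 111 and 132 with the combination treatment. The sum of 9 myeloid markers was 0.515 to 0.785, 0.553 to 3.12, 2.77 to 11.6 and 28.9 to 66.0 FPKM in the same order, with the neutrophil gene *S100a8* at 0 in all 12 libraries and *S100a9*, also of neutrophils, at 0 outside the combination treatment and at 0, 0.069 and 0.405 FPKM within it (at most 11 counts). The sum of 7 markers of natural killer (NK) cells, which also use *Tbx21*, *Eomes* and *Ifng*, was 1.37 to 2.22, 0.779 to 1.85, 1.05 to 2.87 and 3.99 to 5.81 FPKM. Most of its increase in the combination treatment came from *Fcgr3*, an Fc receptor gene that myeloid cells also express, at a mean of 0.152 FPKM with anti-CD3 alone and 2.89 with the combination treatment. *Klrk1*, the main contributor with anti-CD3 alone, had means of 1.48 and 0.89 FPKM, *Klra8* was at 0 in every library, and *Ncr1* was 0 to 0.873 FPKM with the combination treatment. The sum of *Cd8a* and *Cd8b1*, which mark CD8 T cells, was 2.21 to 5.14, 3.34 to 6.29, 4.63 to 9.02 and 4.34 to 5.01 FPKM, and *Cd8a* alone was 5.21-fold higher with FK506 than with anti-CD3 alone (0.641 to 2.18 against 0.103 to 0.282 FPKM, adjusted p = 0.0123, edgeR). The B-cell and myeloid sums were above the control range in both groups in which *Eomes*, *Il18r1* and *Cxcr3* were called higher, the NK-cell sum was so in the combination treatment, and the CD8 sum overlapped the control in both. Of the 5 NK-cell markers tested, the same 3 (*Klrb1c*, *Klrd1* and *Fcgr3*) were called higher with FK506 and with the combination treatment. In the latter, *Klrb1c* had 26 to 61 counts per library against 0 in every control library (adjusted p = 0.0029, edgeR), and *Klrd1* had a log2 fold change of 3.80 (adjusted p = 0.0139, edgeR). From FK506 to the combination treatment the B-cell sum was lower and the myeloid and NK-cell sums were higher. The part of these cells in the results was not tested. In such bulk libraries, fewer cells of a type and less RNA per cell cannot be told apart.

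**Figure D2:**
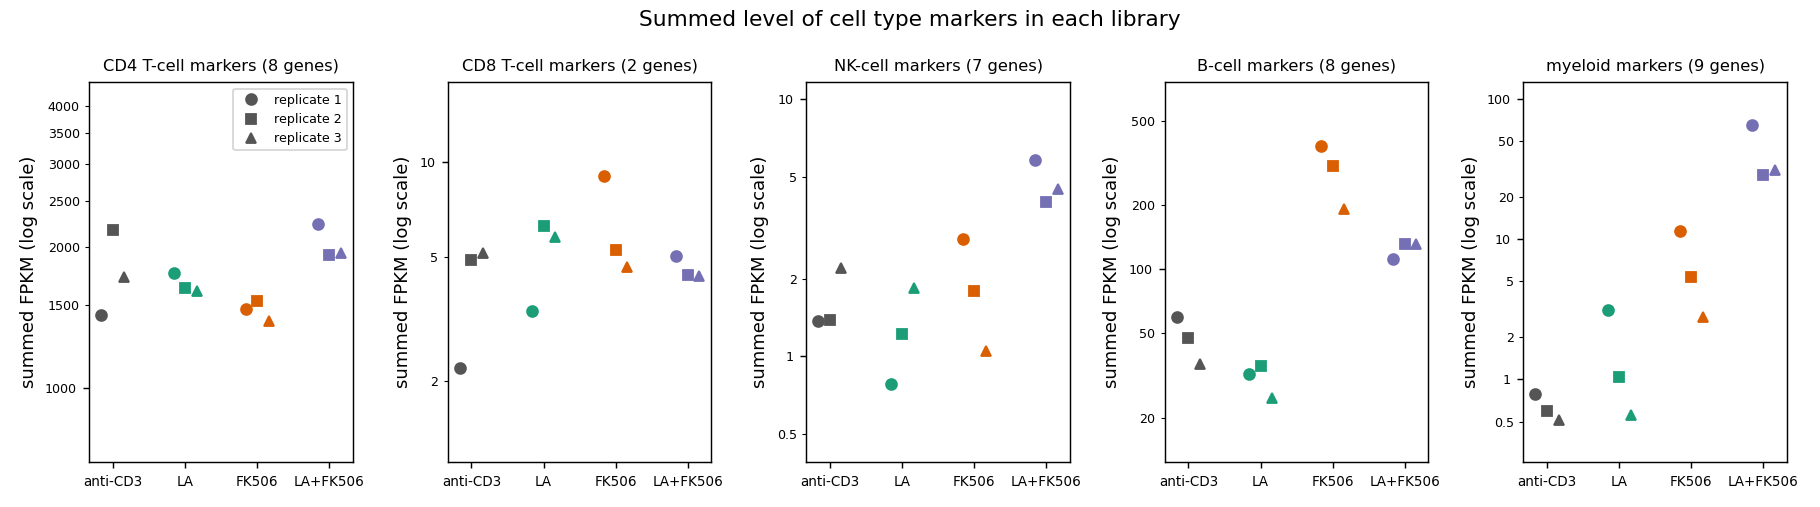
Summed FPKM of markers of CD4 T cells, CD8 T cells, NK cells, B cells and myeloid cells (vertical axes, log scale) in each library of the 4 groups, with 1 symbol shape per replicate number. The B-cell sum was highest with FK506, at 193 to 380, and the myeloid sum was highest with the combination treatment, at 28.9 to 66.0.

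Promoter sequences are shown for *Il12rb2* and *Il18r1*, the members with the largest fall and rise in the combination treatment. They are also shown for *Eomes* and *Cxcr3*, which rose as *Il18r1* did, and for *Ifng*. Each runs from 250 bases before to 50 bases after a gene start of RefSeq on GRCm38.p6, 5′ to 3′ on the gene's strand, with motif matches in capitals. The matches are TTCNNNGAA, a STAT site, in *Il12rb2*, *Il18r1* and *Ifng*, TGGAAA, an NFAT core, in *Eomes*, and TGTGGT, a RUNX site, in *Cxcr3*. The last 2 are written as their reverse complements.
Il12rb2, chr6:67376139-67376438, minus strand: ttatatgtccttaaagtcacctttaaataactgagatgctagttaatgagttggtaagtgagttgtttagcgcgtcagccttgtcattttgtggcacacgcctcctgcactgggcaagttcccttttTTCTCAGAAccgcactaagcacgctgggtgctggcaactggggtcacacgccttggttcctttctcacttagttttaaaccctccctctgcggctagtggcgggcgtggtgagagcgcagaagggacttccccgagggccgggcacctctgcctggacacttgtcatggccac
Il18r1, chr1:40465756-40466055, plus strand, the third of 3 starts: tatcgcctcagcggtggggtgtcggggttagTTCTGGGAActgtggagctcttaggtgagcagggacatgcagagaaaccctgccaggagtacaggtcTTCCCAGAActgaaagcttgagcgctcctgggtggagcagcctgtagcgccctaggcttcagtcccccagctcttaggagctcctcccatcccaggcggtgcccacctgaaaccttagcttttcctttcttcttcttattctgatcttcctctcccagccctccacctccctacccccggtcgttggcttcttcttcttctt
Eomes, chr9:118477939-118478238, plus strand: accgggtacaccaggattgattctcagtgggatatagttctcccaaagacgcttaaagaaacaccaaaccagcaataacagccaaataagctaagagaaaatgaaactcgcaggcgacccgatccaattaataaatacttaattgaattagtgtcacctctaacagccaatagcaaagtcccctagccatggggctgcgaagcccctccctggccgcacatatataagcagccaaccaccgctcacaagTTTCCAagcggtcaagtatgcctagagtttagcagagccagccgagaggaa
Cxcr3, chrX:101734098-101734397, minus strand: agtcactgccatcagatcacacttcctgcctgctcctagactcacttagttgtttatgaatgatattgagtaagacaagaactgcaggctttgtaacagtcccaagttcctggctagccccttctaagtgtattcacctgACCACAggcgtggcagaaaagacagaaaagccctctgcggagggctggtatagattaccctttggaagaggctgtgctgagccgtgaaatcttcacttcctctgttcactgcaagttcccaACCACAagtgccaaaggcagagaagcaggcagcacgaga
Ifng, chr10:118440796-118441095, plus strand: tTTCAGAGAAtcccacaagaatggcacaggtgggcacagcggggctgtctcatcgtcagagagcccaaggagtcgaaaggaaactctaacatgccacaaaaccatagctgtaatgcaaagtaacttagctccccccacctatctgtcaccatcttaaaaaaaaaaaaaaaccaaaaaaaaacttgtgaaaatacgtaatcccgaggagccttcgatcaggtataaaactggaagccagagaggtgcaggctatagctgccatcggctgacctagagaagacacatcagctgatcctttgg

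RefSeq promoters were matched for 9 of the 10 members, with 13 starts in all, and none was at hand for *Il12rb1*. TTCNNNGAA was present at a start of 3 of these 9 members (*Ifng*, *Il12rb2* and *Il18r1*). By promoter it was in 3 of the 13, and in 8.3% of all 32851 promoters of this length. The match lay at position -123 from the start of *Il12rb2*, at -249 from that of *Ifng*, and at -219 and -152 from the third start of *Il18r1*. TGGAAA was present in *Eomes*, where the match begins 1 base before the start, and in *Il18r1*, where the first and second starts share the same match. By promoter it was in 3 of the 13, and in 21.4% of all promoters. TGTGGT was present in *Cxcr3*, *Il18r1* and *Runx3*, in 3 of the 13 promoters, and in 16.8% of all promoters. GGTGTGA, a T-box site, was in none of the 13 promoters and in 3.98% of all of them, and no match of these motifs overlapped another. The *Tbx21*, *Hlx* and *Stat4* promoters held none of the 4 motifs on either strand. A match is a description of the letters in this window only.

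Among the transcription factors, *Tbx21* (T-box 21, chromosome 11, 97098007 to 97115331) encodes T-bet. Its FPKM was 35.2, 49.8 and 33.8 with anti-CD3 alone, 35.6, 39.2 and 39.0 with *L. acidophilus*, 12.5, 13.3 and 24.3 with FK506 and 6.4, 11.0 and 9.99 with the combination treatment. The anti-CD3 and *L. acidophilus* libraries overlapped, every FK506 library lay below them, and every combination library lay below every FK506 library. *Tbx21* was 2.56-fold lower with FK506 than with anti-CD3 alone (log2 fold change -1.36, 95% interval -1.96 to -0.75, adjusted p = 0.00587, edgeR) and 5.04-fold lower with the combination treatment (log2 fold change -2.33, interval -2.96 to -1.71, adjusted p = 6.75e-05, edgeR). Between the combination treatment and FK506 the adjusted p passed, at 0.0281 (edgeR), but the fall of 1.97-fold was short of the cut-off. That adjusted p was under 0.05 in 9 of the 12 fits without 1 library and reached 0.13 in the rest (edgeR). The FK506 library of replicate 3 had the highest level of its group. Without it the difference between the combination treatment and FK506 was -0.58 on the log2 scale. *Tbx21* was called lower there without the FK506 library of replicate 1 (-1.16, adjusted p = 0.0211), that of replicate 2 (-1.13, adjusted p = 0.0264) or the combination library of replicate 2 (-1.13, adjusted p = 0.0423, all edgeR).

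*Eomes* (chromosome 9, 118478186 to 118486132) ran the other way. Its FPKM was 0.773, 0.444 and 0.635 with anti-CD3 alone, 0.822, 1.3 and 1.02 with *L. acidophilus*, 6.22, 8.05 and 2.89 with FK506 and 13.1, 5.95 and 6.34 with the combination treatment. All libraries with FK506, alone or combined, lay above all those without it, whereas the FK506 and combination groups overlapped. The rise *versus* anti-CD3 alone was 8.37-fold with FK506 (log2 fold change 3.07, interval 2.15 to 3.98, adjusted p = 0.000675, edgeR) and 11.8-fold with the combination treatment (log2 fold change 3.56, interval 2.63 to 4.49, adjusted p = 5.97e-05, edgeR). From FK506 to the combination treatment the log2 difference was 0.50 (interval -0.33 to 1.33, adjusted p = 0.402, edgeR). It ranged from 0.0042 to 0.81 with 1 library left out. Per length, the level of *Eomes* was far below that of *Tbx21* with anti-CD3 alone, at a mean of 0.618 against 39.6 FPKM, and close to it with the combination treatment, at 8.46 against 9.13 FPKM.

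*Runx3*, on chromosome 4, encodes a RUNX factor that also silences *Cd4* in CD8 T cells. Its FPKM was 51.9, 31.6 and 40.1 with anti-CD3 alone, 31.8, 34.3 and 32.8 with *L. acidophilus*, 26.7, 17.9 and 23.9 with FK506 and 22.5, 20.8 and 20.3 with the combination treatment. The FK506 and combination libraries overlapped each other and lay below all other libraries. *Runx3* was 2.22-fold lower with the combination treatment than with anti-CD3 alone (log2 fold change -1.15, interval -1.54 to -0.76, adjusted p = 0.000312, edgeR). With FK506 it was 1.95-fold lower (adjusted p = 0.00338, edgeR), short of the 2-fold cut-off, which it passed without the anti-CD3 library of replicate 2 (-1.11) or 3 (-1.01) or the FK506 library of replicate 1 (-1.07). The 2-fold call of *Runx3* in the combination treatment was at the edge of that cut-off: without the anti-CD3 library of replicate 1, which had its highest level, the log2 fold change was -0.93.

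*Hlx*, a homeobox factor gene on chromosome 1, was weakly expressed. Its FPKM was 3.46, 0.84 and 1.04 with anti-CD3 alone, 1.72, 0.837 and 0.854 with *L. acidophilus*, 1.93, 0.734 and 0.804 with FK506 and 1.11, 0.705 and 0.71 with the combination treatment. In each of the 4 groups the library of replicate 1 was the highest, and all groups overlapped. *Hlx* passed no call, and its difference between the combination treatment and anti-CD3 alone was -1.29 on the log2 scale, with an interval from -2.51 to -0.06 (adjusted p = 0.0838, edgeR). Without the anti-CD3 library of replicate 1 that difference was -0.33. It was called lower by DESeq2 (-1.25, adjusted p = 0.0499), with the replicate block (-1.06, adjusted p = 0.00659, edgeR) and without the anti-CD3 library of replicate 2 (-1.62, adjusted p = 0.0446, edgeR).

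*Stat4*, on chromosome 1, encodes the factor activated by the interleukin 12 receptor. Its FPKM was 27.3, 29.9 and 39.0 with anti-CD3 alone, 25.6, 32.1 and 31.9 with *L. acidophilus*, 27.8, 23.4 and 16.1 with FK506 and 55.9, 43.7 and 44.6 with the combination treatment. Each combination library was above every other library, while the remaining 3 groups overlapped. *Stat4* was 2.02-fold higher with the combination treatment than with FK506 (log2 fold change 1.02, interval 0.60 to 1.43, adjusted p = 0.00383, edgeR). *Versus* *L. acidophilus* it was 1.48-fold higher (adjusted p = 0.0363, edgeR), and *versus* anti-CD3 alone the log2 difference was 0.39 (interval -0.02 to 0.80, adjusted p = 0.113, edgeR). With FK506 alone it was 1.54-fold lower than with anti-CD3 alone (adjusted p = 0.0374, edgeR). That adjusted p was under 0.05 in 6 of the 12 fits without 1 library and at most 0.141 (edgeR). The log2 difference ranged from -0.80 to -0.41 over them.

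Of the receptor genes, *Il12rb1* and *Il12rb2* encode both chains of the interleukin 12 receptor, the first of which is shared with the interleukin 23 receptor. The FPKM of *Il12rb1* (chromosome 8) was 93.6, 96.1 and 73.1 with anti-CD3 alone, 79.9, 76.9 and 76.4 with *L. acidophilus*, 58.8, 65.4 and 90.7 with FK506 and 31.0, 47.4 and 48.4 with the combination treatment. The 3 combination libraries lay below all others, and the other groups overlapped. *Il12rb1* was 2.49-fold lower with the combination treatment than with anti-CD3 alone (log2 fold change -1.31, interval -1.74 to -0.89, adjusted p = 0.000219, edgeR), whereas with FK506 alone the difference was -0.35 (interval -0.76 to 0.07, adjusted p = 0.23, edgeR). *Versus* FK506 the combination treatment was 1.96-fold lower (adjusted p = 0.00513, edgeR), short of the cut-off, which it passed without the FK506 library of replicate 1 (-1.14) or the combination library of replicate 2 (-1.08) or 3 (-1.05).

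*Il12rb2* (chromosome 6, 67285986 to 67376293) encodes the signalling chain and had the largest fall of the 10. Its FPKM was 44.6, 42.3 and 69.8 with anti-CD3 alone, 17.1, 26.8 and 34.7 with *L. acidophilus*, 4.38, 2.77 and 8.23 with FK506 and 2.66, 2.28 and 3.0 with the combination treatment. All 3 treated groups lay below anti-CD3 alone without overlap, and the FK506 and combination groups overlapped each other. *Il12rb2* was 10.7-fold lower with FK506 (log2 fold change -3.42, interval -4.21 to -2.62, adjusted p = 0.000189, edgeR) and 17.5-fold lower with the combination treatment (log2 fold change -4.13, interval -4.96 to -3.30, adjusted p = 1.35e-05, edgeR). With *L. acidophilus* alone the log2 difference was -1.05 (interval -1.78 to -0.31), which did not pass (adjusted p = 0.183, edgeR). *Versus* FK506 the difference of the combination treatment was -0.71 (adjusted p = 0.167, edgeR), which passed without the FK506 library of replicate 2 (-1.02, adjusted p = 0.0369, edgeR). Over the fits without 1 library this difference ranged from -1.02 to -0.23, with an adjusted p of up to 0.686 (edgeR). With anti-CD3 alone the mean level per length of *Il12rb2* was 52.2 FPKM against 87.6 for *Il12rb1*, and with the combination treatment it was 2.65 against 42.3 FPKM.

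*Il18r1* (chromosome 1, 40465552 to 40500854) encodes the chain that binds interleukin 18 and had the largest rise in the combination treatment. Its FPKM was 1.07, 0.501 and 0.587 with anti-CD3 alone, 1.51, 0.368 and 0.611 with *L. acidophilus*, 4.56, 4.04 and 2.09 with FK506 and 15.6, 11.9 and 11.9 with the combination treatment. The first 2 groups overlapped, and FK506 and then the combination treatment stood above them without overlap. *Il18r1* was 4.74-fold higher with FK506 than with anti-CD3 alone (log2 fold change 2.24, interval 1.16 to 3.33, adjusted p = 0.00902, edgeR) and 16.9-fold higher with the combination treatment (log2 fold change 4.08, interval 2.92 to 5.23, adjusted p = 0.000102, edgeR). It was also 3.56-fold higher with the combination treatment than with FK506 (adjusted p = 0.02, edgeR). *Il18rap*, which encodes the signalling partner chain, rose from 0.19 to 0.25 FPKM with anti-CD3 alone to 4.04 to 4.48 with the combination treatment (log2 fold change 4.04, adjusted p = 7.37e-06, edgeR).

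*Cxcr3*, on the X chromosome (101731535 to 101734147), encodes the receptor of the interferon-induced chemokines CXCL9 and CXCL10. Its FPKM was 4.95, 6.37 and 7.1 with anti-CD3 alone, 11.0, 9.11 and 9.55 with *L. acidophilus*, 16.7, 14.6 and 12.9 with FK506 and 26.5, 35.6 and 33.5 with the combination treatment. The 4 groups rose in this order with no overlap between neighbours. *Cxcr3* was 2.22-fold higher with FK506 than with anti-CD3 alone (log2 fold change 1.15, interval 0.83 to 1.48, adjusted p = 0.000524, edgeR) and 4.51-fold higher with the combination treatment (log2 fold change 2.17, interval 1.84 to 2.51, adjusted p = 5.90e-06, edgeR). With replicates 2 and 3 only, the FK506 difference was 0.94 (adjusted p = 0.00268, edgeR), short of 2-fold. With *L. acidophilus* alone the difference of 0.61 (interval 0.29 to 0.93) did not pass (adjusted p = 0.103, edgeR), and between the single treatments it was 0.54 (adjusted p = 0.0457, edgeR). *Cxcr3* rose while *Tbx21*, whose product is known to activate it, fell. How these changes are related was not tested.

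*Ifng*, on chromosome 10 at 118441046 to 118445894, encodes interferon gamma, the signature cytokine of Th1 cells. Its FPKM was 3.83, 2.5 and 3.45 with anti-CD3 alone, 26.0, 5.91 and 6.42 with *L. acidophilus*, 4.13, 4.02 and 7.34 with FK506 and 3.34, 11.1 and 13.0 with the combination treatment. All *L. acidophilus* and all FK506 libraries lay above the anti-CD3 libraries, but the combination libraries overlapped every other group: their replicate 1 was the lowest of the group, while replicate 1 of *L. acidophilus* was the highest library of all. No difference of *Ifng* passed the call in edgeR's test. The log2 difference from anti-CD3 alone was 1.89 with *L. acidophilus* (interval 0.59 to 3.19, adjusted p = 0.179), 0.56 with FK506 (interval -0.72 to 1.84, adjusted p = 0.554) and 1.27 with the combination treatment (interval -0.02 to 2.55, adjusted p = 0.103, all edgeR). Without the *L. acidophilus* library of replicate 1, its difference from anti-CD3 alone was 0.84, and without the combination library of replicate 1, that of the combination treatment was 1.66 and passed the call (adjusted p = 0.0353, edgeR). The combination treatment also passed without the *L. acidophilus* library of replicate 1 (adjusted p = 0.0307, edgeR) and with replicates 2 and 3 only (1.81, adjusted p = 0.00244, edgeR), and DESeq2 called *Ifng* higher in both groups that received *L. acidophilus* (adjusted p = 0.0191 for *L. acidophilus* alone and 0.0366 for the combination treatment). The mean *Ifng* level was 3.26 FPKM with anti-CD3 alone and 12.8, 5.16 and 9.15 FPKM with *L. acidophilus*, FK506 and the combination treatment, so no treated group had a mean below the control.

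**Figure D3:**
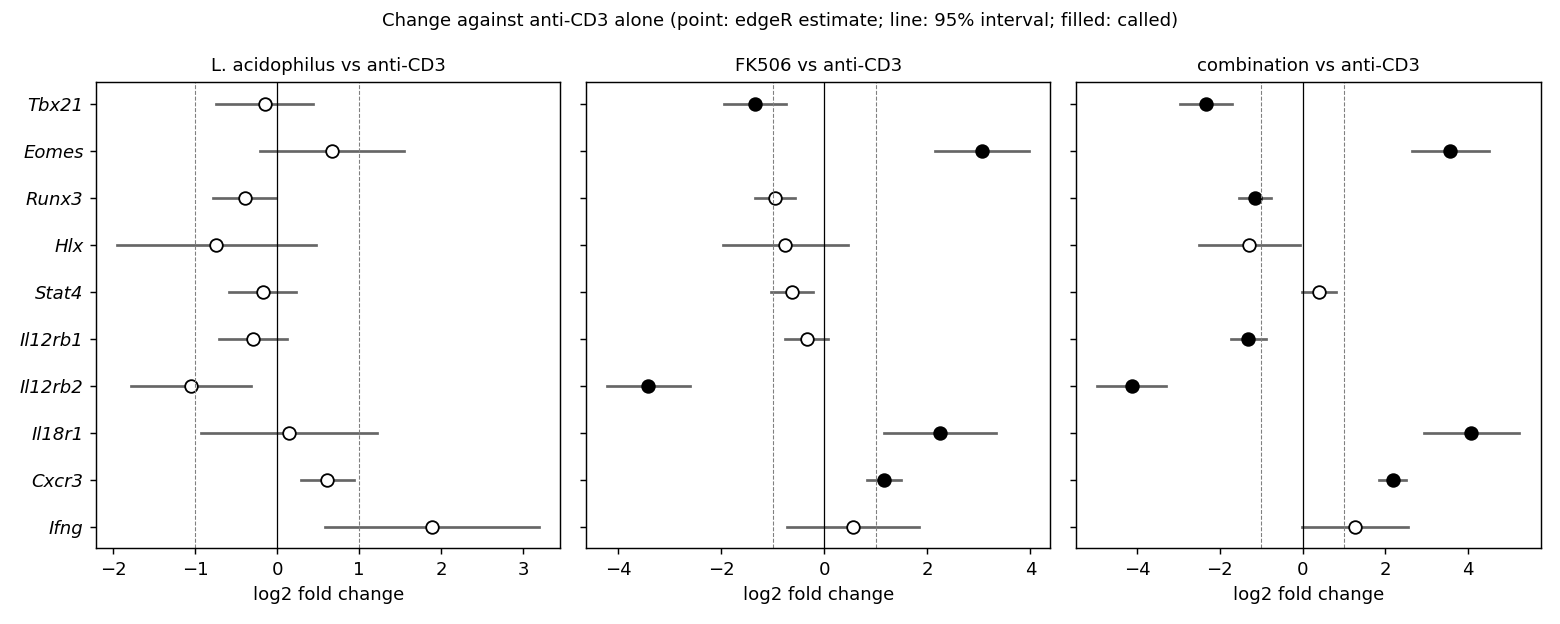
Log2 fold change of each gene (rows) in *L. acidophilus*, FK506 and the combination treatment against anti-CD3 alone (panels), with a point at edgeR's estimate, a line for its 95% interval, dashed lines at 2-fold and filled points for called genes, each panel having its own scale. *Il12rb2* reaches -4.13 and *Il18r1* 4.08 in the combination treatment, while no point is filled for *L. acidophilus*.

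Counted over the members, the comparison of *L. acidophilus* with anti-CD3 alone called 0 of 10 (edgeR), where 0.187% of all tested genes were called. At an unadjusted p under 0.05 there were 4 (*Runx3*, *Il12rb2*, *Cxcr3* and *Ifng*), DESeq2 called 2 (*Il12rb2* lower and *Ifng* higher) and limma on log2(FPKM + 1) called 0. FK506 *versus* anti-CD3 alone called 5 of 10 against a background of 10.6% of all tested genes. The combination treatment *versus* anti-CD3 alone called 7 of 10 against 24.6%, 4 lower and 3 higher, and the median log2 fold change of the 10 was -0.38 against 0.02 for all tested genes. DESeq2 called 9 there, adding *Hlx* and *Ifng*, and limma on log2(FPKM + 1) called 6, without *Runx3*. These 3 comparisons share the anti-CD3 libraries. The shares of all tested genes belong to edgeR's call only. They cannot be set against the counts by unadjusted p, DESeq2 or limma.

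Set against FK506, the combination treatment called 3 of 10 members (*Stat4*, *Il18r1* and *Cxcr3*, all higher) with a background of 7.44%. Without the FK506 library of replicate 3 it called 0: the log2 fold changes were then 0.83 for *Stat4* (adjusted p = 0.0164), 1.57 for *Il18r1* (adjusted p = 0.087) and 0.94 for *Cxcr3* (adjusted p = 0.00792, all edgeR). Without the combination library of replicate 1, *Stat4* and *Il18r1* were lost, and *Cxcr3* fell short of 2-fold without that of replicate 2 (0.94) or replicate 3 (0.998). Set against *L. acidophilus*, the combination treatment called 6 of 10 with a background of 16.6%: *Tbx21* (4.55-fold), *Il12rb1* (2.03-fold) and *Il12rb2* (8.47-fold) lower, and *Eomes* (7.41-fold), *Il18r1* (15.3-fold) and *Cxcr3* (2.95-fold) higher. *Il12rb1* fell short of 2-fold there in 6 of 10 alternatives other than leaving out 1 library, and without the combination library of replicate 1 (-0.85). FK506 *versus* *L. acidophilus* called 4 of 10 with a background of 4.99%: *Tbx21* (2.31-fold) and *Il12rb2* (5.16-fold) lower, and *Eomes* (5.25-fold) and *Il18r1* (4.30-fold) higher. Without either FK506 library of replicates 1 and 2, or without either *L. acidophilus* library of replicates 2 and 3, *Tbx21* and *Il18r1* were lost there, as was *Tbx21* with replicates 2 and 3 only (adjusted p = 0.0816, edgeR).

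The departure of the combination treatment from the added effects of both agents, tested as an interaction in edgeR, passed for 1 of 10 members, with a background of 4.35% of all tested genes. For *Stat4* the combination treatment was above that sum by 1.19 on the log2 scale (interval 0.61 to 1.77, adjusted p = 0.0302), with FK506 alone below and the combination treatment above anti-CD3 alone. It passed in 4 of the 12 fits without 1 library and missed in the other 8, with adjusted p between 0.0529 and 0.0661: those without replicate 3 of anti-CD3, any *L. acidophilus* library, replicate 3 of FK506 or any combination library. The departure of *Il18r1* was 1.69 (interval 0.21 to 3.17, adjusted p = 0.192, edgeR; 2.51 and adjusted p = 0.0387 without the *L. acidophilus* library of replicate 1), and that of *Il12rb1* was -0.68 (interval -1.26 to -0.09, adjusted p = 0.187, edgeR). For *Tbx21* it was -0.83 (interval -1.67 to 0.01, adjusted p = 0.26, edgeR).

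**Figure D4:**
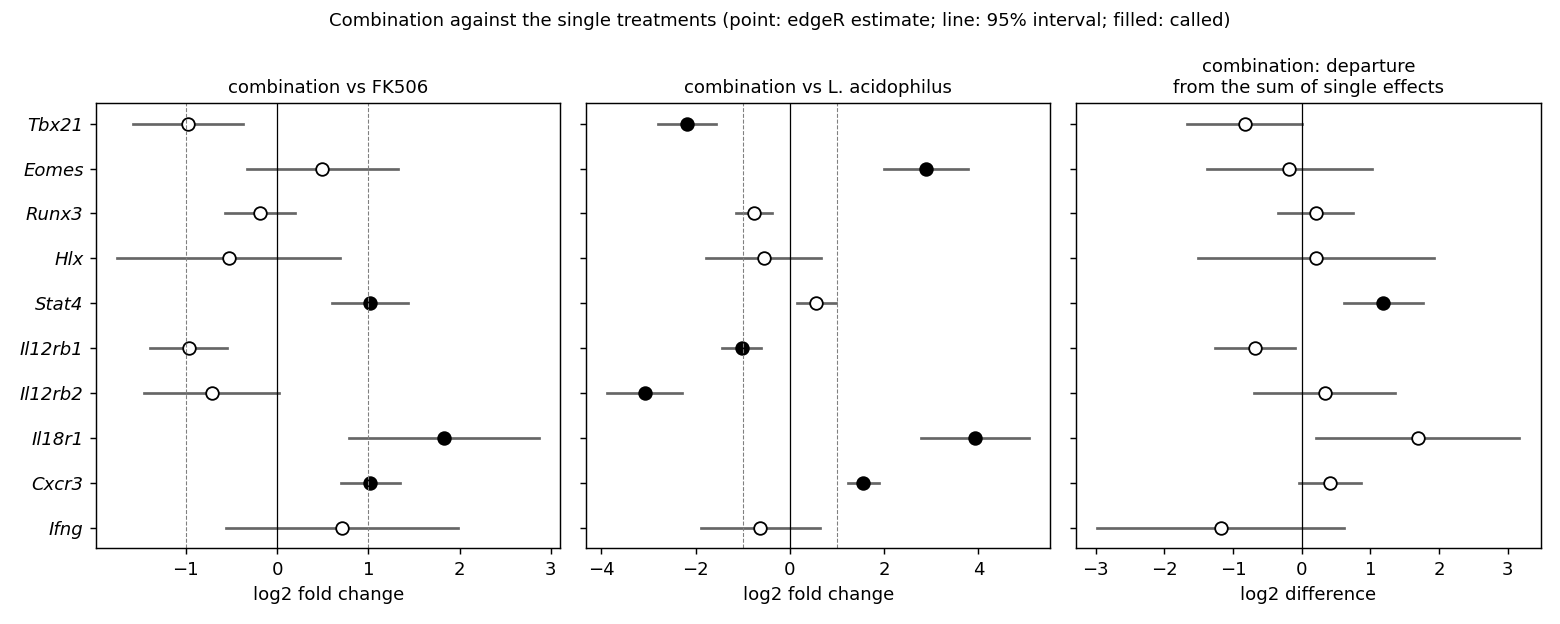
Log2 fold change of each gene (rows) in the combination treatment against FK506 and against *L. acidophilus*, and its departure from the added single effects (panels), with a point at edgeR's estimate, a line for its 95% interval, dashed lines at 2-fold in the first 2 panels and filled points for called genes, each panel having its own scale. Against FK506 the filled points are *Stat4*, *Il18r1* and *Cxcr3*, and for the departure *Stat4*, at 1.19.

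Ordered by mean FPKM, *Tbx21*, *Runx3*, *Il12rb1* and *Il12rb2* shared 1 order, from anti-CD3 alone through *L. acidophilus* and FK506 down to the combination treatment. *Eomes*, *Il18r1* and *Cxcr3* had exactly the reverse order. *Stat4* was highest with the combination treatment and lowest with FK506, *Hlx* was highest with anti-CD3 alone, and *Ifng* was highest with *L. acidophilus*, where 1 library set that place. Neighbours in these orders that overlapped were anti-CD3 alone and *L. acidophilus* for *Tbx21*, *Runx3*, *Il12rb1* and *Il18r1*, *L. acidophilus* and FK506 for *Il12rb1*, and FK506 and the combination treatment for *Eomes*, *Runx3* and *Il12rb2*. For *Stat4* the 3 groups below the combination treatment overlapped, for *Hlx* all did, and for *Ifng* the FK506 and anti-CD3 groups were the neighbours that did not. The genes whose log2(FPKM + 1) was most like that of *Tbx21* over the 12 libraries, among 12220 genes, were *Cs* (Pearson's r = 0.985), *Crabp2* (0.985), *Slc39a8* (0.974), *Cenpw* (0.972) and *Slco4a1* (0.972). For *Ifng* they were *Mdm2* (0.892), *Entpd7* (0.86), *Ckap2* (0.832), LOC108167594 (0.824) and *Plk3* (0.818). These values describe the same 12 libraries in 4 groups and carry no test.

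Other genes of the pathway were counted in the combination treatment *versus* anti-CD3 alone, where 13.8% of all tested genes were called higher and 10.8% lower, 24.6% in all. Of 14 signalling partners of the members' receptors and factors, 3 were higher and 1 was lower, a share close to that of all tested genes, with a median log2 fold change of 0.51. The kinase gene *Jak2*, which serves IL12RB2, fell from 216 to 309 FPKM with anti-CD3 alone to 69.6 to 73.0 (log2 fold change -2.11, adjusted p = 2.06e-05, edgeR). *Jak1* (log2 fold change 1.09, adjusted p = 5.02e-05) and the interferon gamma receptor gene *Ifngr1* (log2 fold change 2.60, adjusted p = 0.000402, both edgeR) rose, the latter from 13.7 to 16.9 FPKM to 79.4 to 165. Of 9 upstream cytokines and CXCR3 ligands, 5 were higher and 3 were lower. *Il12b*, the shared subunit of interleukins 12 and 23, had a count of 0 in every anti-CD3 library and 454 to 709 counts in those of the combination treatment, a level at least 228-fold higher against a floor of 3 counts per library. *Cxcl10*, a ligand of CXCR3, rose with a log2 fold change of 3.54 (adjusted p = 0.000555, edgeR). Among the lower genes, *Il12a*, the partner subunit of *Il12b* in interleukin 12, had a log2 fold change of -1.22 (adjusted p = 0.0229, edgeR), and *Il27*, with 77 to 313 counts in the anti-CD3 libraries, was at 0 in every combination library. Both were named after their values were seen. The myeloid marker sum, given above, was also highest in the combination treatment.

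Of 20 Th1 effector genes and known targets of T-bet or STAT4, 4 were higher and 7 were lower in that comparison, beside 13.8% and 10.8% of all tested genes, with a median log2 fold change of -0.44. *Nkg7*, a granule protein gene of cytotoxic and Th1 cells, fell from 96.6 to 132 FPKM to 8.08 to 8.63 (log2 fold change -3.94, adjusted p = 8.70e-06, edgeR). The cytokine gene *Csf2* fell (log2 fold change -3.48, adjusted p = 0.00175), while the chemokine receptor gene *Cxcr6* (log2 fold change 3.92, adjusted p = 0.000767) and *Havcr2*, which encodes the inhibitory receptor TIM-3 (log2 fold change 1.95, adjusted p = 2.72e-05, all edgeR), rose. Of 22 genes induced by interferon gamma, 8 were higher and 2 were lower, the lower share being near that of all tested genes, with a median of 0.77. *Ciita*, the activator of MHC class II genes, which B cells also express, was 0.35 to 1.44 FPKM with anti-CD3 alone, 10.4 to 20.4 with FK506 and 6.65 to 9.57 with the combination treatment (log2 fold change 3.26, adjusted p = 0.000163, edgeR). *Gbp3* also rose (1.84, adjusted p = 6.96e-06), and *Ido1* (-2.09, adjusted p = 0.00747) and *Socs1* (-1.45, adjusted p = 0.00195, all edgeR) fell. Of 10 factors of other helper lineages, 6 were higher and 1, *Gata3*, was lower (log2 fold change -1.63, adjusted p = 8.18e-06, edgeR), beside the same 13.8% and 10.8%. The largest rises were those of *Foxp3*, the factor of regulatory T cells (log2 fold change 4.11, adjusted p = 3.23e-05, edgeR), and *Rora*, a factor of Th17 cells (3.91, adjusted p = 1.86e-05, edgeR).

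**Figure D5:**
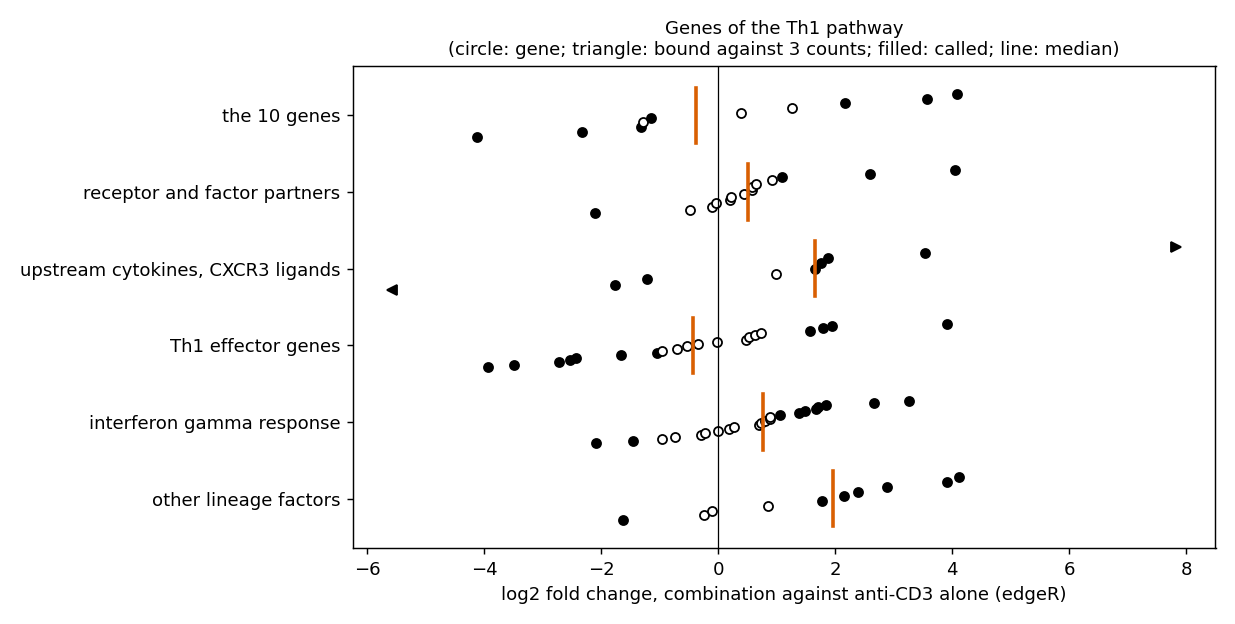
Log2 fold change in the combination treatment against anti-CD3 alone (horizontal axis) of the 10 genes and of 5 lists of pathway genes (rows), with 1 symbol per gene, filled if called, a line at the median, and triangles for genes at 0 counts in 1 group, drawn at their bound against 3 counts. The median of the effector genes lies at -0.44 and that of the interferon gamma response at 0.77, and both lists hold genes on either side of 0.

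Some counts can include reads of neighbours. The gene span of *Il12rb2* shares 3317 bases with *Serbp1*, which had 19006 to 43885 counts per library, and 128 bases with LOC115490490. *Stat4* shares 489 bases with *Gm3940* and 15 with *Gm31812*, and *Eomes* shares 547 with *Gm33408*, each of which had at most 50 counts. The sources used here do not say whether counting used strand, so reads of overlapping genes cannot be told apart.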

How the data were processed

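The authors deposited 1 table of 45777 genes with read counts, FPKM and TPM for 12 libraries. The submitters' processing notes name bcl2fastq 2.20.0, Trimmomatic, HISAT2 2.1.0, StringTie 2.1.3b and mm10 (GRCm38), with no settings. The counts were deposited as whole numbers per gene under the name of read counts, and they were taken to be unnormalized. The FPKM values deposited by the authors are scaled to transcript length and library size, and the TPM columns deposited by the authors were not used. Levels are FPKM. Genes above 0 in at least 3 libraries (23585) entered edgeR 4.0.16 with their counts (quasi-likelihood test, TMM, all 12 libraries, 1 mean per group) in R 4.3.3. Standard errors were the log2 fold change divided by the root of F. Depth was 45416397 to 64658165 counts per library, and intervals cover the spread between libraries as the model estimates it. With 3 libraries against 3, the smallest p of an exact two-sided permutation test is 0.1.

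The members and lists were chosen with earlier results of these data known. All 10 members were named, and of the other lists the called genes with the largest and smallest changes in the combination treatment at a mean FPKM of at least 1, with receptor partners and markers named beside a result. Lists were counted, not tested as sets. Groups and replicate numbers came from the labels. The main fit used no replicate term, so the fold changes, intervals and p-values given treat the libraries as unpaired. The deviations of all 3 same-numbered pairs from their group means correlated above 0.1 in some comparisons. This held for anti-CD3 with *L. acidophilus* (correlations 0.214 to 0.454 across 12221 genes) and for *L. acidophilus* with the combination treatment (0.140 to 0.240). In these comparisons the replicate block, fitted as an alternative, changed no member's call. Alternatives were no TMM factors, DESeq2 1.42.0, limma 3.58.1 on log2(FPKM + 1), log2(FPKM + 0.1) and quantile-normalized values, other filters, the groups compared alone, the replicate block, no fold cut-off, replicates 2 and 3 only and each library left out. Figures were drawn with matplotlib 3.10.9.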

Additional observations from a re-analysis of the deposited data

Results flagged for a closer look

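In the fit of all 12 libraries, the effect of *L. acidophilus* on *Stat4* differed between cells without and with FK506. The departure of the combination treatment from the added single effects was 1.19 on the log2 scale, the difference itself being the value tested (adjusted p = 0.0302, edgeR's quasi-likelihood test with Benjamini-Hochberg adjustment). *L. acidophilus* alone moved *Stat4* by -0.17 *versus* anti-CD3 alone, and on top of FK506 by 1.02. All 3 combination libraries, at 43.7 to 55.9 FPKM, were above all 3 FK506 libraries, at 16.1 to 27.8 FPKM. The FK506 library of replicate 3 was the lowest of all, and without it the departure was 0.99 (adjusted p = 0.0634, edgeR). The departure kept its call in only 4 of the 12 fits without 1 library. With replicates 2 and 3 only it was 1.20 and missed the call (adjusted p = 0.0523, edgeR).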

How the results depend on the processing

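Of 571 refits of the 26 called differences of members, 0 reversed and 41 lost the call, of which 20 kept an adjusted p under 0.05 and fell short of 2-fold. *Runx3* in the combination treatment *versus* anti-CD3 alone did so with no TMM factors (-0.95), with the 3 limma fits (-0.93 to -0.88) and with replicates 2 and 3 only (-0.996), and *Il12rb1* with quantile-normalized values (-0.88). The number of members called was 2 for *L. acidophilus* with DESeq2, and 5 for the combination treatment *versus* FK506 with no fold cut-off. For the departure it was 2 with limma on log2(FPKM + 1), 2 on quantile-normalized values, 2 with the replicate block and 0 with replicates 2 and 3 only. With 1 library left out, it ranged from 0 to 5 for the combination treatment *versus* FK506, from 2 to 4 for FK506 *versus* *L. acidophilus* and from 0 to 1 for the departure. The block called 8 members for the combination treatment *versus* anti-CD3 alone, adding *Hlx* (-1.06), and added *Il18r1* to the departure (1.80, adjusted p = 0.0471). Same-numbered libraries correlated at a mean of 0.204 over 18 pairs, 12 of them above 0.1, against -0.0997 for different numbers. In the other comparisons at least 1 pair was at or below 0.1, among them *L. acidophilus* with FK506 (0.503, 0.0878 and 0.379), and the labels do not say what a number stands for. The departure needs all 4 groups, so the fit of the groups compared alone has no value for it.

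Of the 44 differences that passed no call, some changed sign (log2 values). *Hlx* in FK506 *versus* *L. acidophilus* was 0.019 with no TMM factors. The departure of *Eomes* was 0.16 with limma on log2(FPKM + 1) and 0.13 on quantile-normalized values, where *Tbx21* with *L. acidophilus* was 0.0046. With replicates 2 and 3 only, *Il18r1* with *L. acidophilus* was -0.23, *Ifng* in the combination treatment *versus* *L. acidophilus* 0.82, *Il12rb1* in FK506 *versus* *L. acidophilus* 0.13 and the departure of *Hlx* -0.039. With 1 library left out, *Hlx* ranged from -1.16 to 0.22 with *L. acidophilus*, -1.32 to 0.20 with FK506, -0.82 to 0.038 in the combination treatment *versus* FK506, -0.59 to 0.41 in FK506 *versus* *L. acidophilus* and -0.75 to 0.78 in the departure. With *L. acidophilus*, *Tbx21* ranged from -0.28 to 0.076 and *Il18r1* from -0.68 to 0.60. *Ifng* ranged from -0.97 to 0.43 in the combination treatment *versus* *L. acidophilus*, *Il12rb1* from -0.23 to 0.12 in FK506 *versus* *L. acidophilus*, and the departures of *Runx3* and *Eomes* from -0.012 to 0.35 and -0.67 to 0.14. The cause of these changes was not tested. Every member had at least 69 counts in every library, the fewest being those of *Il18r1* and *Hlx*.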
